A study of Homo sapiens with 6 samples.

Results

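The members described here were 10 rows of the gene count table that belong to the NBPF family, out of 33451 rows in all. They were found by name: NBPF1, NBPF3, NBPF8, NBPF9, NBPF10, NBPF11, NBPF12, NBPF14, NBPF15 and AC240274.1. The last is a row with an NBPF-type exon pattern on a scaffold that is kept apart from the assembled chromosome sequences. NBPF1 and AC240274.1 were included because both rose strongly in these same libraries, so their changes are given as a description without a p-value. The other 8 members belong to the list as further family genes and were not chosen for their change, though the list was drawn up with earlier results of these data known and leaves out 12 rows with an NBPF name. All 10 passed the filter on low counts. Those 12 rows are described beside the members.

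The libraries came from MDA-MB-453, an established human breast cancer line with a luminal, androgen receptor-positive profile. For 5 days the cells received either 25(OH)D at 100 nM, which is 25-hydroxyvitamin D, the circulating form of vitamin D, or the solvent alone (0.1% alcohol) as control. There were 3 libraries per group, and no genetic change is named for either. The model is 1 cell line at 1 dose and 1 time. The study's methods call the replicates biological, while the sources used here do not say whether the 3 libraries of a group were separate cultures, so p-values measure only the spread between these libraries. The libraries were made with a kit that keeps the strand of the RNA.

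Total counts ran from 33268860 to 40928176 per library, and the first principal component, holding 64.8% of the variance, separated the 2 groups. Mitochondrial transcripts took 7.85% to 7.99% of the counts in control and 8.89% to 9.24% in 25(OH)D libraries. Their part in the results below was not tested. Of 9 luminal markers all were detected, from FOXA1 at 116 CPM to KRT8 at 1674 CPM in control. ESR1 and PGR, the hormone receptors this line lacks, stayed at or under 0.0993 CPM as group means. Of 7 markers of other cell types, the blood markers PTPRC, CD3E and MS4A1 stayed at or under 0.0916 CPM and COL1A1, a collagen of fibroblasts, stood at 37.5 CPM in control and 33.1 CPM in 25(OH)D. The other 3 (PECAM1, KRT5 and KRT14) stayed at or under 0.42 CPM. CPM is the read count brought to a common library total after TMM scaling. As in any bulk sample, a change in the number of cells of a kind and a change in RNA per cell cannot be told apart.

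The NBPF (neuroblastoma breakpoint) genes take their name from NBPF1, which was found interrupted by a translocation in a patient with neuroblastoma. Their proteins are built from tandem copies of the Olduvai domain, also called DUF1220, whose copy number rose steeply in the human lineage. Most copies sit in segmental duplications of chromosome 1 near the centromere, many of them on the long arm. NBPF1 and NBPF3 lie farther out, on the short arm. NBPF1 has been linked to arrest of the cell cycle in G1, and the molecular function of most members is poorly known. Because the copies are so similar, a short read often matches several of them.

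NBPF1 and AC240274.1 stood at similar read numbers in control cells and both were several-fold higher after 25(OH)D. NBPF1 lies on chr1:16562319-16613562, minus strand (GRCh38, as all coordinates of rows here). The control libraries held 2030, 1876 and 1840 counts of it, against 12316, 13897 and 12758 counts after 25(OH)D. In CPM these were 49.4 ± 0.626 (SD, n = 3) and 368 ± 21.3 (SD, n = 3). AC240274.1 lies on scaffold KI270711.1, positions 4612 to 29626, minus strand, where it was the only row of the table. It had 2190, 1949 and 1901 counts in control and 16968, 17744 and 15442 counts in 25(OH)D libraries, or 51.9 ± 0.588 CPM (SD, n = 3) and 473 ± 10.6 CPM (SD, n = 3). In both rows every 25(OH)D library lay far above every control library.

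The fitted log2 fold change, 25(OH)D minus control, was 2.89 ± 0.05 (SE) for NBPF1, a 7.44-fold rise, and 3.19 ± 0.04 (SE) for AC240274.1, a 9.10-fold rise. Among the 18183 genes tested they ranked 134 and 112 by log2 fold change, and 35 and 29 among the 9138 genes with a mean above 10 CPM. The 2 rows did not move in a fixed ratio. For each count of NBPF1, control libraries had 1.08, 1.04 and 1.03 counts of AC240274.1, and 25(OH)D libraries had 1.38, 1.28 and 1.21. With the counts of both rows added before the fit, so that a read given to 1 of the 2 rows enters the sum whichever row it went to, the log2 fold change was 3.05 ± 0.04 (SE).

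**Figure D1:**
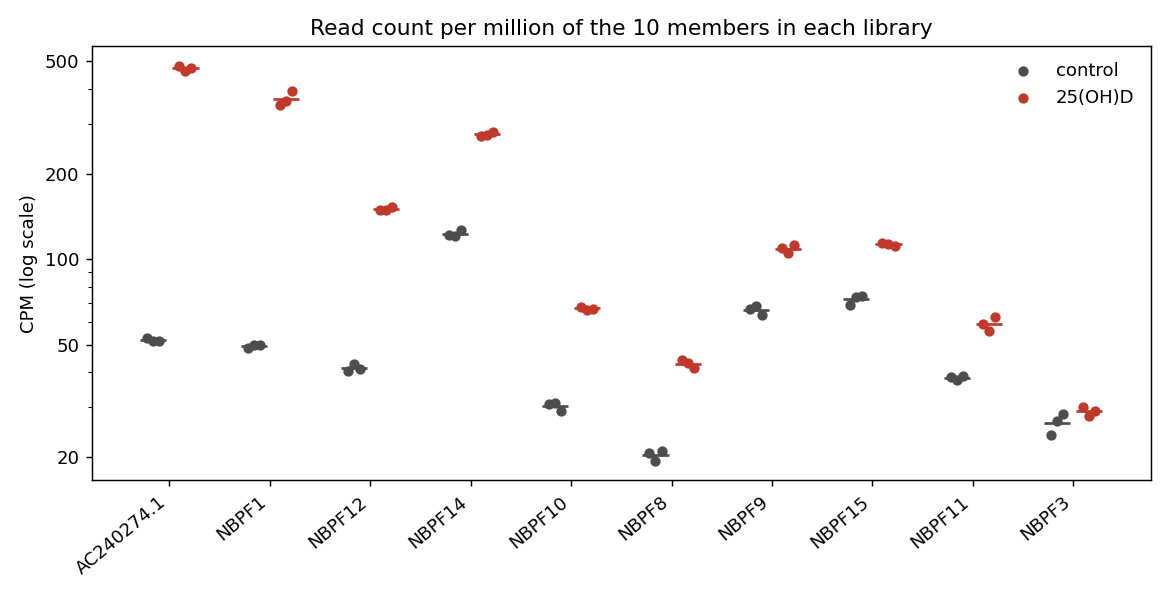
Scaled read counts (CPM, log scale) of the 10 members, ordered by fold change, with 1 point per library (grey, 3 control libraries; red, 3 25(OH)D libraries) and a line at each group mean. AC240274.1 and NBPF1 sat near 50 CPM in control and at 473 and 368 CPM in 25(OH)D, and in NBPF3 the 2 groups overlapped.

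Of the 8 members other than NBPF1 and AC240274.1, 7 rose at an adjusted p under 0.05 (edgeR quasi-likelihood test, Benjamini-Hochberg over all genes tested) and none fell. Over all genes tested, 17.3% were called higher and 16.5% lower by the same rule, and the median log2 fold change was -0.01, against 0.89 for these 8 members. Because many of these rows share sequence, they are not 7 separate observations. Of the 8, 4 were also more than doubled (log2 fold change over 1 with an unadjusted p under 0.05), where 4.02% of all genes were. In each of the 7 the 3 25(OH)D libraries lay above the 3 control libraries, which was so for 22.8% of all genes.

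NBPF12, on chr1:146938744-146996202, plus strand, had the largest change of these 8 members. Its counts were 1684, 1612 and 1509 in control and 5232, 5744 and 4989 in 25(OH)D libraries. It rose 3.64-fold (log2 fold change 1.86 ± 0.05 SE, edgeR adjusted p = 6.01e-13). Per length it reached 20.4 ± 0.271 RPKM (SD, n = 3) from 5.77 ± 0.168 RPKM (SD, n = 3), where RPKM is the read count per length of exon at a common library total.

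NBPF14, NBPF10 and NBPF8 each about doubled. NBPF14, on chr1:148531385-148679751, minus strand, is a long copy that held 16.7% of all family counts in control cells. It had 5056, 4569 and 4683 counts in control and 9552, 10562 and 9161 counts in 25(OH)D libraries (log2 fold change 1.16 ± 0.04 SE, edgeR adjusted p = 1.93e-11). NBPF10, on chr1:146064699-146144942, minus strand, had 1281, 1177 and 1068 counts in control and 2392, 2548 and 2182 counts in 25(OH)D (log2 fold change 1.15 ± 0.05 SE, edgeR adjusted p = 7.25e-10). NBPF10 shares 2322 exon bases on the same strand, 17.5% of its length, with the row RP11-458D21.5, which itself rose by 0.83 ± 0.07 (SE) on the log2 scale (edgeR adjusted p = 3.91e-07), so the 2 cannot be told apart over those bases. NBPF8, on chr1:120436353-120467739, plus strand, is annotated as an unprocessed pseudogene. It had 865, 735 and 772 counts in control and 1544, 1652 and 1351 counts in 25(OH)D (log2 fold change 1.07 ± 0.06 SE, edgeR adjusted p = 8.21e-09).

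NBPF9, NBPF15 and NBPF11 changed less, between 1.55-fold and 1.64-fold. NBPF9, on chr1:149054027-149103561, minus strand, had 2786, 2582 and 2348 counts in control and 3838, 4062 and 3661 counts in 25(OH)D libraries (log2 fold change 0.72 ± 0.05 SE, edgeR adjusted p = 3.25e-08). NBPF15, on chr1:144421386-144461674, minus strand, had 2881, 2793 and 2724 counts in control and 4019, 4353 and 3621 counts in 25(OH)D (log2 fold change 0.64 ± 0.05 SE, edgeR adjusted p = 7.18e-08). NBPF11, on chr1:148102046-148152322, minus strand, had 1596, 1413 and 1427 counts in control and 2078, 2148 and 2042 counts in 25(OH)D (log2 fold change 0.63 ± 0.06 SE, edgeR adjusted p = 8.71e-07). In raw counts as well as in CPM, the groups of all 3 genes were apart.

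NBPF3 was the exception. This copy, on chr1:21440128-21485005, plus strand, lies on the short arm as NBPF1 does. It had 998, 1015 and 1042 counts in control and 1059, 1073 and 945 counts in 25(OH)D libraries, and the groups overlapped. In CPM it stood at 26.4 ± 2.20 (SD, n = 3) and 29.01 ± 1.11 (SD, n = 3). The log2 fold change was 0.14 ± 0.07 (SE), with an edgeR adjusted p of 0.170 and a 95% interval from -0.02 to 0.30, so a change of up to 1.23-fold was within the interval and the fold of any other member was not. NBPF3 overlaps exons of the pseudogene PFN1P10 over 245 bases on the opposite strand. The libraries were stranded, but whether the counting used the strand is not given in the sources used here. Reads over those bases may therefore not be told apart. The small RNA row Y_RNA collects several places under 1 name. Its listed positions met NBPF3 exons over 54 bases, but the chromosome and strand of that copy were not checked.

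**Figure D2:**
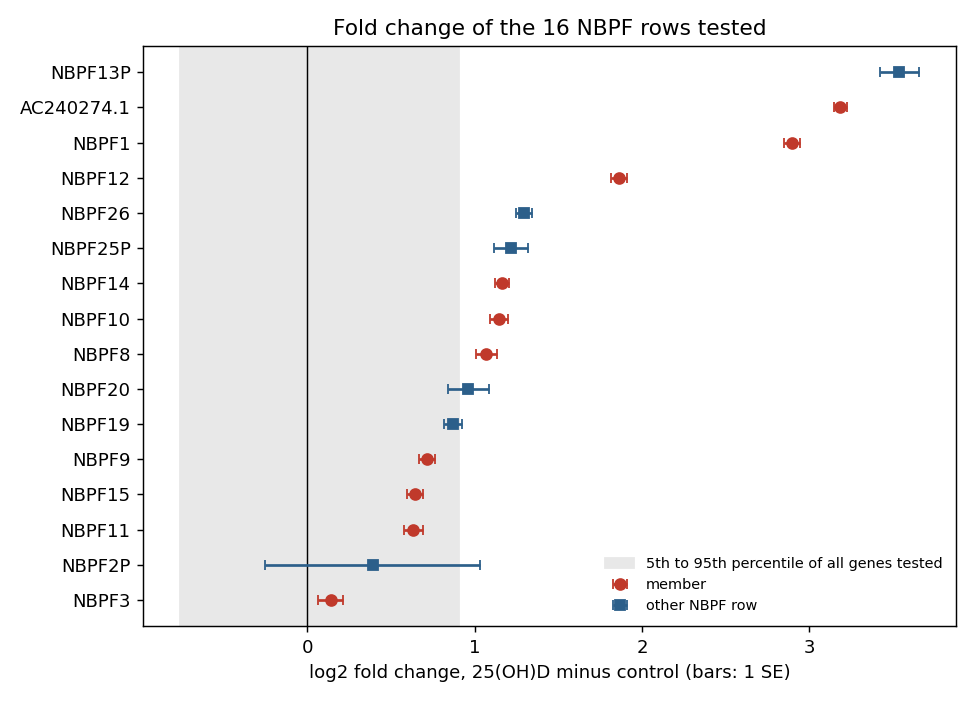
Log2 fold change, 25(OH)D minus control, with bars of 1 SE, of the 16 NBPF rows tested (red circles, members; blue squares, other NBPF rows) against the range from the 5th to the 95th percentile of all genes tested (grey). NBPF13P, AC240274.1 and NBPF1 lie at or above 2.89, and NBPF3 and NBPF2P are the 2 rows not called.

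Outside the members, 6 of the 12 other NBPF rows were tested and 5 of them rose, with a median log2 fold change over the 6 of 1.09. Over all genes tested, 17.3% were called higher. The highest was NBPF13P, a pseudogene on chr1:147019656-147124285, minus strand. Its 3′ end lies 23454 bases from the 3′ end of NBPF12, which is on the plus strand. NBPF13P had 123, 89 and 130 counts in control and 1153, 1292 and 1186 counts in 25(OH)D libraries, an 11.6-fold rise (log2 fold change 3.54 ± 0.11 SE, edgeR adjusted p = 1.17e-11). The 25(OH)D libraries of NBPF13P thus lay well above its control libraries, at a level far below that of NBPF1. NBPF26, on chr1:120723923-120841481, plus strand, had the most reads of the family in control cells, with 6731, 6360 and 6197 counts against 13962, 14896 and 14284 in 25(OH)D (log2 fold change 1.30 ± 0.05 SE, edgeR adjusted p = 4.44e-11). NBPF25P, NBPF20 and NBPF19 rose by 1.22 ± 0.10, 0.96 ± 0.12 and 0.87 ± 0.05 (SE) on the log2 scale. NBPF2P, at 0.257 CPM in control and 0.338 CPM in 25(OH)D, did not pass the test (edgeR adjusted p = 0.687, 95% interval of the log2 fold change from -0.99 to 1.77). The 6 rows that were not tested (NBPF4, NBPF6, NBPF7, NBPF17P, NBPF21P and NBPF22P) had at most 11 counts in any library.

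The family as a whole rose 3.01-fold, a sum that includes the 2 rows chosen for their rise. The other 20 rows together rose 2.17-fold, from 637 to 1383 CPM as group means. The 2 chosen rows made up a larger part of the family after 25(OH)D. All 22 rows together came to 727, 743 and 745 CPM in control against 2202, 2176 and 2292 CPM after 25(OH)D. With the counts of all rows added before the fit, the log2 fold change was 1.59 ± 0.03 (SE). A sum does not depend on how single reads were divided among its rows, but a read counted in several rows, if the authors' counting allowed that, would enter it more than once. NBPF1 and AC240274.1 together held 13.9%, 13.6% and 13.6% of the family's counts in control and 37.8%, 37.8% and 37.8% in 25(OH)D. Their sum rose by 739 CPM and that of the other 20 rows by 746 CPM. The share of NBPF3 was 3.57% ± 0.253 (SD, n = 3) in control and 1.31% ± 0.0551 (SD, n = 3) in 25(OH)D.

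**Figure D3:**
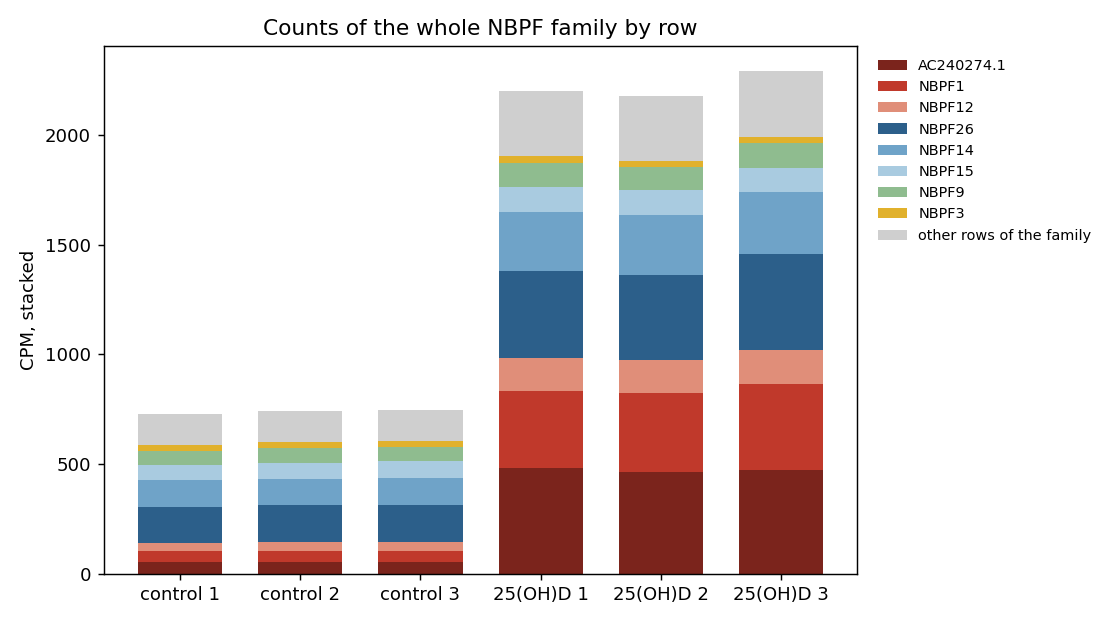
Scaled read counts (CPM) of the NBPF family in each of the 6 libraries, stacked by row. The stacks reach 727 to 745 CPM in control and 2176 to 2292 CPM in 25(OH)D, and the 2 darkest red parts, AC240274.1 and NBPF1, grow from 13.7% to 37.8% of the stack on average.

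Per length, the order of the family changed. In control cells NBPF26 was highest at 27.9 ± 0.582 RPKM (SD, n = 3), followed by NBPF15 at 13.8 ± 0.491, AC240274.1 at 11.7 ± 0.163 and NBPF14 at 10.3 ± 0.247 RPKM. NBPF9, NBPF11 and NBPF12 came next, at 7.44, 6.51 and 5.77 RPKM. NBPF1 at 4.11, NBPF3 at 3.93 and NBPF8 at 3.88 RPKM could not be ordered, since the libraries of neighbours in that order overlapped. NBPF10, at 2.31 RPKM, was the lowest member. In 25(OH)D cells AC240274.1 led at 103 ± 1.76 RPKM (SD, n = 3), above NBPF26 at 66.5 ± 4.08 and NBPF1 at 29.6 ± 1.65 RPKM. NBPF15 and NBPF12 overlapped at 20.9 and 20.4 RPKM. NBPF1 and AC240274.1, alike in read number, differed per length because the table gives them 12212 and 4520 exon bases.

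How far the rows share sequence was measured on the GENCODE 29 transcripts by cutting the exons of each gene into all stretches of 100 bases and looking for exact copies elsewhere. Of the stretches of NBPF1, 8.79% were found in another gene, each of them in at least 1 other NBPF gene, and of those of NBPF3, 1.87%. At 150 bases, the length of 1 read, the share was 2.78% for NBPF1 and 0.0641% for NBPF3, and at 300 bases it was 0 for both. The other members with a transcript shared far more, from 35.4% of the 100-base stretches in NBPF9 to 77.7% in NBPF10, mostly with each other. NBPF14 also had 8.45% of its stretches in NOTCH2NLA, a gene outside the family. NBPF10 had 61.8% of its stretches in NBPF14, and NBPF11 had 41.0% in NBPF12. The share held in common with NBPF1 was small in all of them, between 0.856% in NBPF3 and 6.96% in NBPF11, and was 5.14% in NBPF12. NBPF13P had no stretch in common with any NBPF row, though the annotation used here holds fewer of its exons than the count table. The transcript of AC240274.1 was not analysed here, so its overlap with NBPF1 is not among these values.

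**Figure D4:**
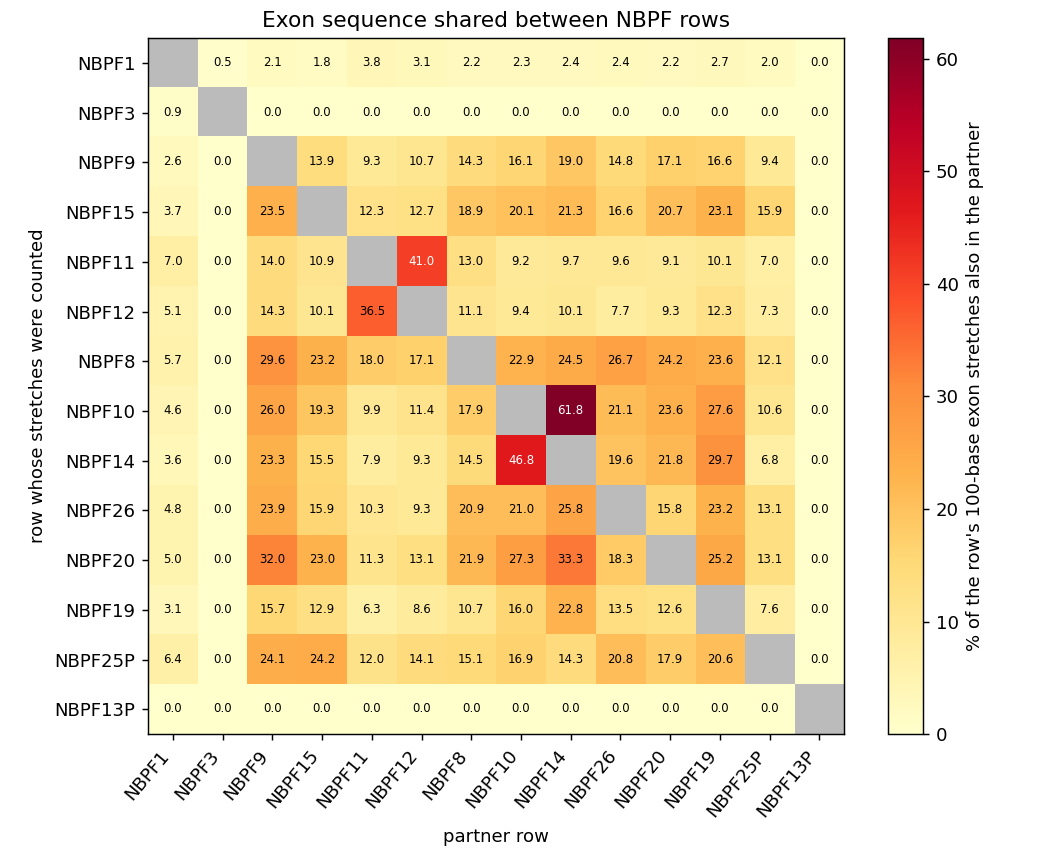
Percent of the 100-base exon stretches of each row (vertical axis) that occur exactly in each partner row (horizontal axis), for 14 NBPF rows with a transcript in GENCODE 29. The darkest cells are NBPF10 in NBPF14 (61.8%) and NBPF14 in NBPF10 (46.8%), while the row of NBPF3 is near 0 throughout and NBPF1 stays at or under 3.76%.

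Fold change and the shared share are set side by side here as a description only. Across 15 NBPF rows Spearman's rank correlation between the log2 fold change and the percent of shared stretches was 0.05. NBPF1, which was chosen for its rise, is among the 15, and sharing with AC240274.1 is in none of the values. For NBPF13P the annotation searched held 15 of 28 exons. Across 14 rows without NBPF1 the correlation with the percent shared with NBPF1 was 0.23. These rows share libraries and sequence, and may share reads, so neither value shows whether fold change followed sharing. Among the 4 of the 8 members with at most 50% of their stretches elsewhere in the family, NBPF9, NBPF12 and NBPF15 rose and NBPF3 did not pass the test. How reads that match several copies were treated is not given in the sources used here, and its part in the rise of the other members was not tested.

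A coding stretch of 100 bases shows how alike the copies are. It was chosen by script from 563 windows present in all 4 genes as one with a typical number of differences, and capitals mark bases that differ from NBPF1. It lies in NBPF1 on chr1:16579294-16579393 (minus), in NBPF11 on chr1:148120602-148120701 (minus), in NBPF12 on chr1:146972760-146972859 (plus) and in NBPF3 on chr1:21468697-21468796 (plus), build GRCh38, from GENCODE 29 transcripts, 5′ to 3′. 
NBPF1: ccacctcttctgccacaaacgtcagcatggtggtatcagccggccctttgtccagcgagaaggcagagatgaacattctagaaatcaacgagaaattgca
NBPF11: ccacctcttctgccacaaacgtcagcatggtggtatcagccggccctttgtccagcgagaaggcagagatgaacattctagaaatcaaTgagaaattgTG
NBPF12: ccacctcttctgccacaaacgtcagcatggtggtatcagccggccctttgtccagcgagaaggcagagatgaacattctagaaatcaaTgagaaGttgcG
NBPF3: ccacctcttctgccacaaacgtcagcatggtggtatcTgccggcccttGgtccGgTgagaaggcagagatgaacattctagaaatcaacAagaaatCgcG
NBPF11 and NBPF12 each differ from NBPF1 at 3 bases and NBPF3 at 7. Over the longest coding sequences, aligned locally, NBPF1 was 96.4% identical to NBPF12 over 3344 bases, 94.6% identical to NBPF11 over 2469 bases and 89.8% identical to NBPF3 over 1768 bases. NBPF15 was the closest by percent, 97.4% over 1784 bases. Of the 7 members compared in this way, NBPF3 was the least similar to NBPF1.

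The exon lengths of AC240274.1 were those of an NBPF gene. Its listed exons merge into 20, and 16 of them matched NBPF1 exons in order and exact length. They run as 103, 215, 73, 212, 210, 103, 215, 73, 206, 52, 164, 52, 173, 52 and 173 bases up to a 112-base exon, the lengths of NBPF1 exons 17 to 32, and AC240274.1 has 1 more pair of 52 and 173 bases. Of its 19 introns, 11 had the exact length of an NBPF1 intron in order, the most of any row, against 9 for NBPF12 and for NBPF9 and 1 for NBPF3. By exon length alone NBPF26 matched more, at 18, and NBPF12, NBPF8, NBPF10 and NBPF14 matched at 17. Equal lengths do not show equal sequence.

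**Figure D5:**
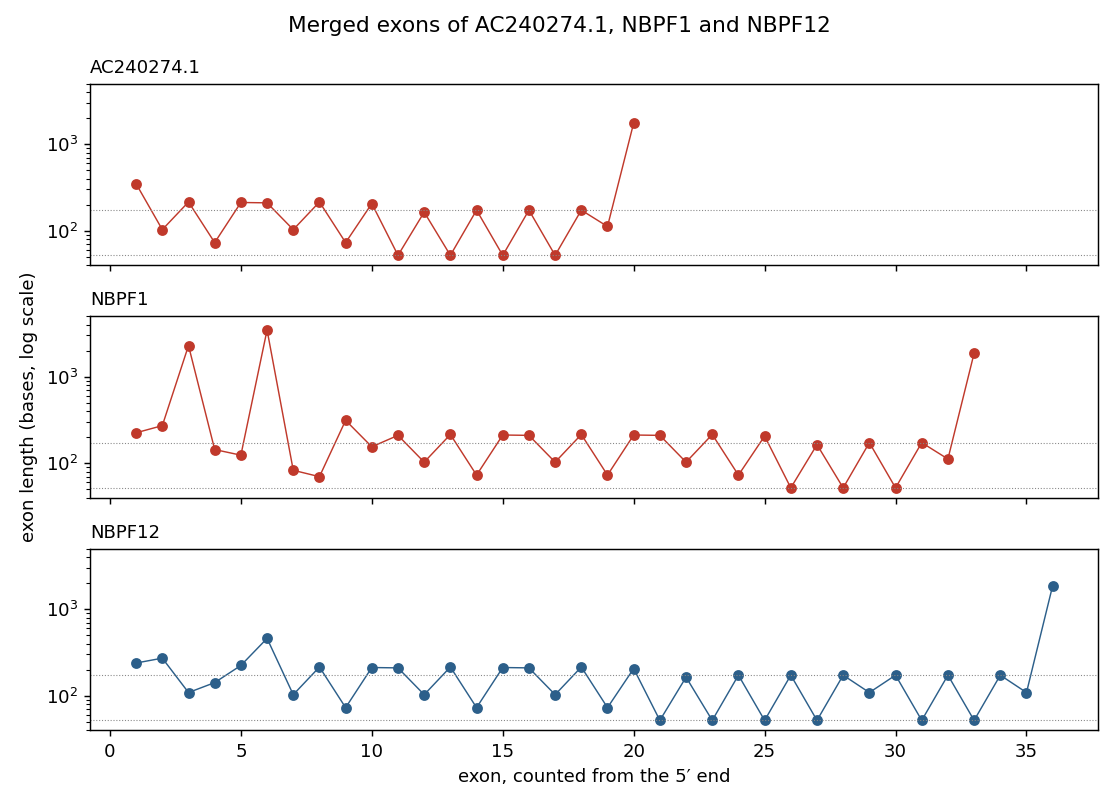
Length of each merged exon (bases, log scale) of AC240274.1, NBPF1 and NBPF12 against its place counted from the 5′ end, with dotted lines at 52 and 173 bases. The alternating 52-base and 173-base exons near the 3′ end occur in all 3 rows, and AC240274.1 has 20 exons against 33 in NBPF1 and 36 in NBPF12.

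Upstream of the start, NBPF1 and NBPF3 were much alike, and NBPF1 rose 7.44-fold while NBPF3 did not pass the test. In RefSeq start windows of 250 bases before to 50 bases after the start (GRCh38.p14), NBPF3 was 92.0% identical to NBPF1 over 275 aligned bases. Gaps are left out of this and the other percentages, and 33 of the 250 bases printed for NBPF3 were not identical to NBPF1. EVI5, the gene from which this promoter type was copied in evolution, was 82.4% identical over 222 bases in 1 of its 2 windows. NBPF8, NBPF15 and NBPF9 were 86.5% to 87.2% identical, whereas the windows of NBPF10, NBPF11, NBPF12, NBPF14 and NBPF19 had no alignment with NBPF1 longer than 15 bases. The parts before the start are printed 5′ to 3′, with capitals at bases not identical to NBPF1 in the alignment, so that the copies can be compared. Bases of NBPF1 that a copy lacks carry no mark. They are NBPF1 on chr1:16613565-16613814 (minus), NBPF3 on chr1:21439887-21440136 (plus), EVI5 on chr1:92785109-92785316 (minus) and NBPF9 on chr1:149103552-149103747 (minus).
NBPF1: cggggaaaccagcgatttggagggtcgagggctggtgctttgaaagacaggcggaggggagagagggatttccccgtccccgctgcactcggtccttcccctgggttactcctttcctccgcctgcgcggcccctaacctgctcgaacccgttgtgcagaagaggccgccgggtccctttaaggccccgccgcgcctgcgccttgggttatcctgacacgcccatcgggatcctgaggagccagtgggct
NBPF3: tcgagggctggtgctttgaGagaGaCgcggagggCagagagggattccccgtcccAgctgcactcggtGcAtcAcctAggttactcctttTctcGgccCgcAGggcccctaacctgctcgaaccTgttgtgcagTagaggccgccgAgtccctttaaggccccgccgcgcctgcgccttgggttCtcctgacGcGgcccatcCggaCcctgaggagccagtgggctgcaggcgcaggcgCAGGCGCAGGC
EVI5: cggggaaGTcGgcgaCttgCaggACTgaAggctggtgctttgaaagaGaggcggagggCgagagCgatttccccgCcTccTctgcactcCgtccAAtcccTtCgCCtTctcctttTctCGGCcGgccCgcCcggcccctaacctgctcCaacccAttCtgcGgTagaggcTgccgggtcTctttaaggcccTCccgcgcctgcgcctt
NBPF9: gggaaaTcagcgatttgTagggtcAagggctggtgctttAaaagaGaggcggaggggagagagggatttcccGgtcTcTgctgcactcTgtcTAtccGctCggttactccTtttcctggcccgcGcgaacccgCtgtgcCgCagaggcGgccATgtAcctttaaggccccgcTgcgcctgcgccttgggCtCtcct
Members whose RefSeq window was and was not like that of NBPF1 rose. Among those whose window starts within 420 bases of the 5′ end of the counted row, NBPF9 and NBPF15 have the NBPF1-like window and rose by 0.72 and 0.64 on the log2 scale, and NBPF10, NBPF11 and NBPF12, without it, rose by 0.63 to 1.86. The RefSeq start of NBPF8 lies 21326 bases before its counted row, and that of NBPF14 lies 83740 bases inside its row, so these windows are not at the rows' own 5′ ends. EVI5 itself rose by 0.27 ± 0.07 on the log2 scale (SE, edgeR adjusted p = 0.00916), a call lost on log2 RPKM with limma (adjusted p = 0.119 and 0.109), and its relative EVI5L did not pass the test (log2 fold change -0.05 ± 0.05 SE, edgeR adjusted p = 0.419).

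Short motifs were searched on both strands of the same windows. The kappaB consensus matched in the windows of NBPF1, NBPF3, NBPF8, NBPF9 and NBPF15 and in no window of the other members, and 9.08% of all 35116 RefSeq windows hold it. The GC box GGGCGG had no match in NBPF1 or NBPF3 and was present in 45.0% of all windows. The DR3 consensus, a direct repeat with 3 bases between its arms of the kind that the vitamin D receptor binds with RXR, matched in no member's window and in 0.0740% of all windows. No match says only that these letters are not in this window.

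Most genes around the members, family rows left aside, were called neither higher nor lower, with differences between members. The nearest 3 tested genes on each side of the members gave 22 genes outside the family, of which 3 were called higher and 1 lower. Many of these 22 were rows such as Y_RNA that collect several places under 1 name. With such rows passed over, a choice made after seeing the data, there were 39 neighbours. Of these, 9 were called higher, 6 lower and 24 neither, where 17.3% of all genes were called higher and 16.5% lower. The median log2 fold change of the 39 was 0.03. The called genes by NBPF8, at 22121 to 699907 bases from it, were SEC22B, NOTCH2 and CH17-472G23.4 (higher) and FAM72B (lower). Those by NBPF12 were PFN1P8, NOTCH2NL, RP11-458D21.5 and PRKAB2, all higher. NOTCH2NL and RP11-458D21.5 lie 709718 and 709744 bases from NBPF12, but 1261 and 0 bases from NBPF10, where they are neighbours as well. Family rows beside a member, such as NBPF13P by NBPF12, are not in these counts. Only 2 of the 39 rose by more than 1 on the log2 scale. The first was RP5-1182A14.5, a long noncoding RNA gene on chr1:16617391-16617729, plus strand, which begins 3829 bases from the 5′ end of NBPF1 and is read in the opposite direction. It had 0, 0 and 2 counts in control and 41, 48 and 22 counts in 25(OH)D libraries (edgeR adjusted p = 2.7e-05). Over the groups these were 2 against 111 counts, a ratio of 60.8 (95% exact interval from 16.4 to 508, counting error only). The second was PFN1P8, a profilin pseudogene inside an intron of NBPF12 on the other strand, with 6, 6 and 8 counts in control and 24, 50 and 36 counts in 25(OH)D (log2 fold change 2.56 ± 0.43 SE, edgeR adjusted p = 0.00033). Whether the counting used the strand is not given, so reads from that intron of NBPF12 and from PFN1P8 may not be told apart. On the far side of RP5-1182A14.5, CROCCP2 stood at 58.1 CPM in control and 51.2 CPM in 25(OH)D (log2 fold change -0.18 ± 0.05 SE, edgeR adjusted p = 0.0173), a call lost without control replicate 2 or 3 or 25(OH)D replicate 1 or 3 (adjusted p = 0.05 to 0.0892). The other 7 neighbours called higher rose by 0.26 (PRKAB2) to 0.84 (NOTCH2) on the log2 scale, and the rest of them were SEC22B, CH17-472G23.4, PDE4DIP, RP11-458D21.5 and NOTCH2NL, and those called lower were NECAP2, FAM72B, FAM72C, TXNIP, CROCCP2 and RAP1GAP. Of these, NECAP2 and PRKAB2 lost the call when 1 library was left out (adjusted p from 0.0598 to 0.162 where lost). Next to NBPF3, RAP1GAP, a GTPase-activating protein for Rap1, fell by 1.17 on the log2 scale (SE 0.04, edgeR adjusted p = 2.06e-11).

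Genes with single copies in the same region of the long arm had log2 fold changes from -0.56 to 0.69. Of 19 such genes tested, 3 were called higher, 1 lower and 15 neither, with a median log2 fold change of 0.13. Over all genes tested, 17.3% were called higher and 16.5% lower. The 3 genes called higher rose by 0.26 to 0.51 on the log2 scale. CHD1L, a chromatin remodeller, rose by 0.28 ± 0.05 (SE) on the log2 scale (edgeR adjusted p = 0.000669), and TXNIP, which binds thioredoxin, fell by 0.56 on that scale (edgeR adjusted p = 1.88e-06). Of 18 tested genes from other families duplicated in the same regions, 3 were called higher, 4 lower and 11 neither, with a median of -0.14. The shares of all genes, 17.3% and 16.5%, stand beside these counts as well. NOTCH2, a receptor of the Notch pathway, rose by 0.84 ± 0.06 (SE, edgeR adjusted p = 7.3e-08; NBPF19 has 26.4% of its 100-base stretches in NOTCH2 and 33.0% in NOTCH2NLA, so reads could be split between them) and SRGAP2 fell by 0.38 (edgeR adjusted p = 2.19e-05), both on the log2 scale. The highest log2 fold change in this list was 0.84. That is below the values of NBPF8, NBPF10, NBPF12 and NBPF14 and above those of NBPF3, NBPF9, NBPF11 and NBPF15.

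The 2 relatives that share ancestry with the NBPF genes moved little and in opposite directions. PDE4DIP, or myomegalin, a centrosome and Golgi scaffold that carries an Olduvai domain, stood at 148 CPM in control and 181 CPM in 25(OH)D (log2 fold change 0.30 ± 0.04 SE, edgeR adjusted p = 6.91e-05). CDK5RAP2, a centrosomal protein, stood at 311 CPM and 286 CPM (log2 fold change -0.12 ± 0.04 SE, edgeR adjusted p = 0.0215), and lost its call without control replicate 2 or 25(OH)D replicate 1 or 3 (adjusted p = 0.0674 to 0.122).

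Of 16 tested genes of the G1 phase, to which NBPF1 has been linked, 3 were called higher, 4 lower and 9 neither. Over all genes tested, 17.3% were called higher and 16.5% lower. The median log2 fold change of the list was -0.05. The list holds inhibitors of cyclin-dependent kinases as well as cyclins and kinases, so its counts are given by role. Among the inhibitors CDKN1A, which encodes p21, rose from 5.74 to 13.8 CPM (log2 fold change 1.26 ± 0.11 SE, edgeR adjusted p = 7.7e-07). CDKN2B, which encodes p15, rose by 0.67 ± 0.14 (SE) on the log2 scale (edgeR adjusted p = 0.00149), and CDKN1B, which encodes p27, fell by 0.30 on that scale (edgeR adjusted p = 6.44e-05). Of the cyclins CCND1 rose by 0.35 ± 0.05 (SE, edgeR adjusted p = 9.64e-05). Of the kinases CDK4 fell by 0.26 (SE 0.05, edgeR adjusted p = 0.000447). CDK2 and CDK6 were called lower as well, by 0.28 and 0.69 (edgeR adjusted p = 0.0418 and 0.0394). Their calls did not hold, with an adjusted p of 0.055 to 0.195 for CDK2 without any 1 library other than 25(OH)D replicate 3, and 0.0811 to 0.124 for CDK6 without any 1 library other than 25(OH)D replicate 2. All 5 genes other than CDKN1A and CDKN1B were named after their values were seen.

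The 5 genes whose log2 CPM over the 6 libraries was most like that of NBPF1, by Pearson's r, were RP11-223P11.2, PADI3, AMOTL1, DOCK1 and CTD-2210P24.1, with r at or above 0.9998 in each. With 2 groups of 3 libraries, such values reflect the gap between groups, and 492 genes reached an r above 0.99. DOCK1, an activator of Rac, had 3354, 3083 and 2956 counts in control and 9911, 10972 and 9516 in 25(OH)D libraries, and RP11-223P11.2 lies inside it on the other strand. PADI3, a peptidylarginine deiminase on the short arm of chromosome 1, had 0 counts in all 3 control libraries and 44, 53 and 48 in 25(OH)D, at least 17.6-fold higher against a floor of 3 counts per library. Within the family NBPF12 ranked 11, NBPF14 27 and AC240274.1 30 in this order, whereas NBPF3 ranked 4629 with an r of 0.673.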

How the data were processed

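RNA was sequenced from 3 control and 3 25(OH)D libraries, and the authors deposited a table of raw read counts and a table of RPKM, each for 33451 genes. The submitters' processing notes name the build GRCh38, Trimmomatic 0.36, featureCounts of Subread 1.5.1 and edgeR 3.12.1. The aligner, the annotation release, the strand setting and the treatment of reads that match several places are not given in the sources used here. The deposited RPKM equal count over length and total, within a relative difference of 2.23e-13.

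Members and gene lists were chosen with earlier results of these data known. Counts were tested with edgeR 4.0.16 (TMM, default low-count filter, quasi-likelihood F-test, Benjamini-Hochberg over 18183 genes, called at adjusted p under 0.05). The fit was tested on simulated data. With 33268860 to 40928176 counts per library, 3 counts correspond to 0.0720 to 0.0921 CPM; this floor and the intervals cover counting error only. No pair of libraries was a duplicate (chi-square per gene from 4.01 to 12.1).

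The genes named are all 10 members, every other NBPF row, those called among the nearest 3 tested genes on each side of each member, the called genes with the smallest p in each direction of each list and every gene of lists of up to 2 (for G1 genes, all that were called), and the 5 genes most like NBPF1. As neighbours in the second count given, 55 rows whose exons lie on several sequences or spread over more than 3000000 bases were passed over, a choice made after seeing the data. Alternatives were other scalings (RLE, upper quartile, library sizes alone), no filter, DESeq2 1.42.0, limma 3.58.1 on log2(RPKM + 1) and log2(RPKM + 0.1), the replicate number as a block, each library left out, and another call rule. Sequence comparisons used GENCODE 29 transcripts and RefSeq start windows (Biopython 1.88). Genes sharing sequence are uncertain where reads could be split between them.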

Additional observations from a re-analysis of the deposited data

How the results depend on the processing

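In the 14 other fits, 7 of the 8 members other than NBPF1 and AC240274.1 were called each time, and 4 or 5 of the other NBPF rows. Under the rule of an absolute log2 fold change over 1 with an unadjusted p under 0.05, 4 of the 8 members and 1209 genes were called, against 7 and 6142. With the members left out that share over 50% of their stretches, 3 of 4 were called, since fewer rows were counted. Without 1 library in turn, 5091 to 5697 genes were called, the log2 fold change of NBPF1 ran from 2.86 to 2.93, that of AC240274.1 from 3.18 to 3.21, that of their sum from 3.04 to 3.07 and that of the family from 1.58 to 1.61. With library sizes alone and with upper-quartile factors, AC240274.1 stood at 3.14 in both, the sum of the pair at 3.01 in both, and the family at 1.55 in both. On log2(RPKM + 1), NBPF1 stood at 2.58, AC240274.1 at 3.04 and their sum at 2.99; on log2(RPKM + 0.1), NBPF1 stood at 2.82, AC240274.1 at 3.13 and the family at 1.63; the cause of these shifts was not tested. No scaling moved the median of all genes by more than 0.044 on the log2 scale.

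The replicate block called 5953 genes and 7 of the 8 members, and among the named genes NECAP2 and CDK6 lost their call (adjusted p = 0.052 and 0.0523). The replicate numbers share only a number: deviations of same-numbered libraries from their group means correlated at -0.0721, -0.0120 and -0.0460.

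NBPF2P, which was not called, stood between -0.12 and 1.28 on the log2 scale without 1 library. On log2(RPKM + 0.1) NBPF20 lost its call (adjusted p = 0.0564). On log2(RPKM + 1) and log2(RPKM + 0.1), CH17-472G23.4 (0.0642 and 0.0549), FAM72C (0.0604 and 0.0521), NECAP2 (0.115 and 0.102), PRKAB2 (0.163 and 0.151), CDK2 (0.191 and 0.172) and CDK6 (0.121 and 0.303) lost their calls, with these adjusted p. With DESeq2 so did NECAP2 (0.0745), CDK2 (0.235) and CDK6 (0.1), and PRKAB2 did with upper-quartile factors (0.057) and library sizes alone (0.0605). With the rows that collect several places passed over, a choice added after seeing the data, 15 of 39 neighbours were called, against 4 of 22.

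Depth limits the rows near 0, NBPF2P among them. For rows that share much of their sequence, the division of reads among copies is a limit that the deposited counts do not show. NBPF1, NBPF3 and NBPF13P shared little with the other family rows searched. Their sharing with AC240274.1 was not measured, and the annotation searched held 15 of the 28 exons of NBPF13P. How large this limit is for them is therefore not known.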
